A study of Mus musculus with 6 samples.

Results

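DNA replication and G1/S genes are described here in mouse HACA cells carrying a short hairpin RNA against Loxl2 (shLoxl2) or against Snail (shSnail). The members were a list of 44 named genes for origin licensing, the replicative helicase, the polymerases, the clamp and its loader, nucleotide supply and G1/S control, picked out by gene name on the arrays. For 43 of them a probe was found, out of 19594 named genes with a probe, and all 43 were tested among 18588 genes. Fen1 was not analysed here. A gene with several probes was represented by its brightest, which applied to Tyms alone.

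DNA replication begins in G1, when the origin recognition complex with Cdc6 and Cdt1 loads the Mcm helicase onto origins. Cyclin D and cyclin E kinases release the E2F transcription factors from the retinoblastoma proteins, and E2F then drives many genes of S phase. In S phase Cdc45 and Mcm10 help to start the helicase, polymerase alpha with primase begins each strand, and polymerases delta and epsilon extend them on the Pcna clamp. The genes of mitosis are switched on later in the cycle, largely through CHR and CCAAT promoter elements.

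RNA of the silenced cells was hybridised on Agilent 2-colour arrays together with RNA of HACA cells carrying a hairpin against GFP (shGFP), so every cell line compared carried a hairpin. Each shLoxl2 replicate, 1 and 2, had 1 array in each dye orientation, read here as a dye swap of 1 RNA and averaged, while each of the 2 shSnail replicates had 1 array with its RNA in Cy5, so n = 2 for either silencing. Neither the tissue behind the name HACA, the number of clones nor whether replicates came from separate cultures is given in the labels. The spread between these samples may thus be technical. The p-values for shLoxl2 cells and for the difference between the silencings measure that spread. The shSnail test with the dye effect removed took every array as a single value. Its p-values thus also draw on the spread between the arrays of a dye-swapped pair. The shGFP RNA counted as 1 control sample, and the tests did not estimate its own spread. Its signal did differ between arrays, as given below for Mcm4 with the replicates.

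Red signals exceeded background clearly at 85.4% to 92.4% of spots and green ones at 55.9% to 74.9%, and the number of arrays limits the precision. Over all genes, the log2 ratios of silenced over shGFP RNA on the 2 arrays of a dye-swapped pair correlated at 0.04 and -0.01, and the means of the 2 pairs at 0.68. The dye effect, which enters the 2 arrays of a pair with opposite sign, passed the threshold for 5154 genes and correlated at 0.79 between the pairs. The 2 shSnail arrays, which share 1 dye orientation, correlated at 0.88. The targeted transcripts did not check the labels: Loxl2 was at 0.11 (SE 0.12, limma adjusted p = 0.586) in shLoxl2 cells and rose above background on 2 of 4 arrays in the silenced channel, and Snai1 was well above background in neither channel of the shSnail arrays. Among 10 epithelial markers 9 were tested, and Krt5, Krt14, Krt18, Trp63, Dsp and Sfn were well above background in all 12 channels, Epcam in 8, and Cdh1 and Krt8 in 6. In shLoxl2 cells Epcam (1.51) and Cdh1 (1.08) rose, and Trp63 (-1.15), Sfn (-0.87) and Dsp (-0.59) fell. In shSnail cells Krt8 rose (1.12), and Sfn (-1.92), Dsp (-1.83) and Trp63 (-1.71) fell. Among 7 fibroblast markers Pdgfra alone passed the threshold, at -0.82 in shLoxl2 and -1.18 in shSnail cells, and the leukocyte gene Cd68 was at 0.66 in shLoxl2 cells (1 of 6 leukocyte markers), while 0 of 2 endothelial markers passed. Of 3 muscle and neural markers tested, Myh3 was lower in shSnail cells (-0.58, adjusted p = 0.0488). Their part in the results was not tested. Fewer cells in a phase and less RNA per cell cannot be told apart in RNA from whole cultures.

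The members' promoters, which the choice of names did not use, held E2F words more often than those of all genes, although most members had none, and 3 promoters are printed: Mcm6, which holds most E2F words and passed in neither silencing, Pola1, which fell in shSnail cells, and Mcm10, which fell in both. RefSeq (GRCm38.p6) gave a window of 250 bases before a start for 37 of the 44 members. The words searched on both strands were TTTGGCGC, TTTCCCGC, TTTCGCGC and TTTGCCGC for E2F, CCAAT, and TTTGAA or TTCGAA for CHR, and words may overlap each other. An E2F word stood before 11 of 37 members (29.7%), 9 of 53 other replication and G1/S genes (17.0%), 1 of 31 mitosis genes (3.2%) and 583 of 27025 genes in all (2.2%). CCAAT stood before 62.2% of the members, 74.2% of the mitosis genes and 37.5% of all genes, and a CHR word before 21.6%, 35.5% and 19.6%. In the sequences below, all on the minus strand and written 5′ to 3′ towards the start, capitals mark E2F words. Mcm6 (chr1:128359706-128359955) held 3, of which 2 overlap. Pola1 (chrX:93632156-93632405) held 1 and Mcm10 (chr2:5012792-5013041) none.
Mcm6: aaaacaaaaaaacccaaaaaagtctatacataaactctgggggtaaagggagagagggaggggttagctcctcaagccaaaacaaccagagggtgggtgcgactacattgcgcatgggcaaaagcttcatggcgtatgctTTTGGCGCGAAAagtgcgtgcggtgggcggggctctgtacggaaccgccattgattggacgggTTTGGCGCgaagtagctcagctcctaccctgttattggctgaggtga
Pola1: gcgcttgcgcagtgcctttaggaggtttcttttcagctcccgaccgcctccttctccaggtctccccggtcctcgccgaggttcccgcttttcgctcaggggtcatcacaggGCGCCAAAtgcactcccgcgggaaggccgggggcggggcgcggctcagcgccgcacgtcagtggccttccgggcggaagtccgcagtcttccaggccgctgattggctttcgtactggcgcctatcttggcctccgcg
Mcm10: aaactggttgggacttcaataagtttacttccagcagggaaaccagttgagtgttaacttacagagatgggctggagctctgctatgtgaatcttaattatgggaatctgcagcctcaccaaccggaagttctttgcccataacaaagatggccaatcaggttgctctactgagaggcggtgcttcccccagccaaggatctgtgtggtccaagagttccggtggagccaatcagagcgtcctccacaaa

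In shLoxl2 cells 2 of the 43 members rose and 6 fell against shGFP. Uhrf1 and cyclin D1 rose, while Mcm10, Orc6, the clamp loader subunits Rfc3 and Rfc4, thymidylate synthase and the primase subunit Prim2 fell. Each change was smaller than 2-fold, from 1.39-fold higher for Ccnd1 to 1.81-fold lower for Mcm10. The background was 14.5% of all genes called in either direction, 8.47% higher and 5.99% lower, beside 18.6%, 4.65% and 14% of the members. The members' share was thus above the background for falls and below it for rises, on few genes. The members' median log2 fold change was 0.05, beside -0.01 for all genes. Of the 35 members that did not pass, 33 had a 95% interval within a 2-fold change either way. At an unadjusted p below 0.05, 6 members were higher and 13 lower, beside 3018 and 2278 of all 18588 genes.

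Orc6 alone of the 8 called members passed in shLoxl2 cells whichever shLoxl2 replicate was left out. Without replicate 1, Mcm10 (-1.10, adjusted p = 0.0271) and Orc6 (-0.71, adjusted p = 0.0404) still passed and the other 6 called members did not, at adjusted p from 0.0610 for Prim2 to 0.128 for Rfc3. Without replicate 2, Orc6 (-0.76, adjusted p = 0.0285) and Rfc3 (-0.87, adjusted p = 0.0273) passed and the other 6 did not, at adjusted p from 0.0537 for Tyms and Uhrf1 to 0.109 for Ccnd1. Ccnd1 (adjusted p = 0.0831) and Prim2 (adjusted p = 0.0574) also lost their calls without either shSnail array, which share the estimate of spread. Every one of the 8 kept its direction in these fits. With the scanner software's log ratio 810 of all genes were called in shLoxl2 cells, and Rfc3 alone of the 8 passed, the others lying at adjusted p from 0.0546 for Mcm10 to 0.155 for Ccnd1. With median centring Ccnd1 (0.33, adjusted p = 0.157), Prim2 (-0.40, adjusted p = 0.108) and Rfc3 did not pass.

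In shSnail cells 5 members fell and 0 rose against shGFP by limma, with the dye effect removed in full. At an unadjusted p below 0.05, 2 members were higher and 8 lower, beside 2580 and 3217 of all 18588 genes. Mcm10, the catalytic subunit of polymerase alpha (Pola1), Cdc45, cyclin E2 and the phosphatase Cdc25a fell, from 1.74-fold lower for Cdc45 to 2.32-fold lower for Mcm10. Before dye correction the shSnail arrays gave 0.02 and -0.15 for Ccne2 and 0.81 and 0.24 for Cdc25a. The falls of these 2 genes rest on subtracting dye effects of 0.87 and 1.425, measured in part against a floor. The background was 15.4% of all genes called, 6.13% higher and 9.24% lower, and the 11.6% of members called lower was near it. The members' median was -0.07, beside -0.04 for all genes. Of the 38 members that did not pass, 31 had a 95% interval within a 2-fold change either way, 6 had one reaching a 2-fold fall and 1 a 2-fold rise.

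With a single shSnail array, 2 of all genes passed without replicate 1 and 5 without replicate 2, so such fits say little about any one gene. The 5 called genes stayed below 0 with either shSnail array left out. Without replicate 1 and without replicate 2, their values were -1.40 and -1.04 for Mcm10, -1.06 and -1.03 for Pola1, -0.82 and -0.79 for Cdc45, -1.02 and -0.84 for Ccne2, and -1.18 and -0.62 for Cdc25a. Without shLoxl2 replicate 1 Cdc25a did not pass (-0.77, adjusted p = 0.0567), and 8 members were called lower, Chek1, E2f2, Pola2 and Pole being the additional ones, and Orc6 was called higher. Without shLoxl2 replicate 2, Rfc3, whose dye effect is then measured in part against a floor, was additionally lower, and Orc6 and Rfc4 were higher. The calls over all genes rose as well in these fits, from 2857 to 5170 and 5630. The share of calls that were higher over all genes was 39.9%, and 22.6% with the scanner software's log ratio and 50.7% with median centring in place of loess.

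**Figure D1:**
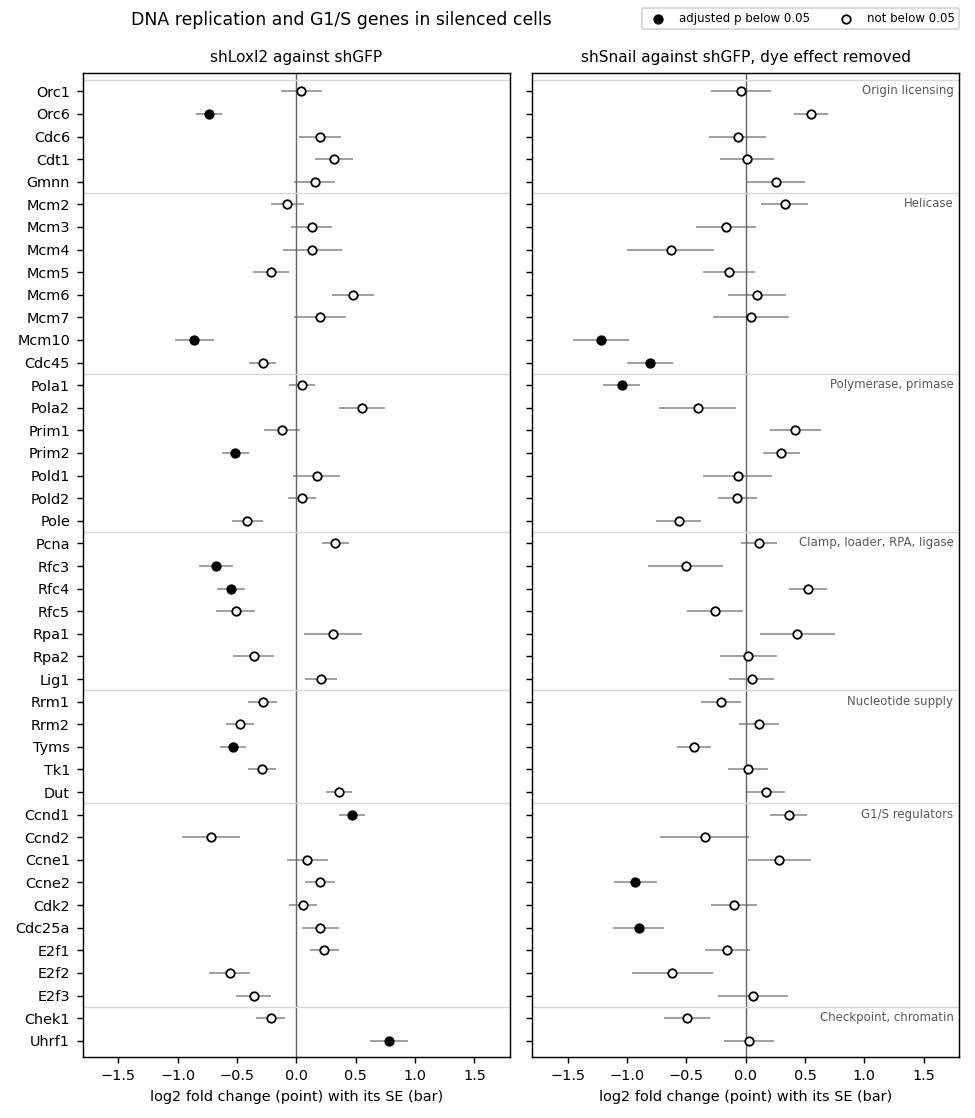
Log2 fold change against shGFP (horizontal axis) of the 43 members in shLoxl2 cells (left) and shSnail cells with the dye effect removed (right). Members are grouped by role. Points are fitted values from n = 2 replicates, bars 1 SE either side, and filled points passed an adjusted p of 0.05. The SE on the right comes from a fit that took every array as a single value. Filled points number 8 on the left and 5 on the right, and Mcm10 alone is filled on both sides.

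The plot of members by role shows calls spread over the roles in shLoxl2 cells, with 1 or 2 filled points in each of the 7 groups. In shSnail cells they lay in 3 groups, the helicase, the polymerases and the G1/S regulators. Whether the roles differed was not tested.

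Origin licensing genes were described first. Orc6, a subunit of the origin recognition complex, had log2 ratios to shGFP, with no dye correction, of -0.75 and -0.76 on the Cy3 and Cy5 arrays of shLoxl2 replicate 1, -0.62 and -0.81 on those of replicate 2, and 0.56 and 0.45 on the shSnail arrays of replicates 1 and 2. The shLoxl2 arrays all lay below 0 and the shSnail arrays above it, with no overlap. Its fold change was 1.66-fold lower in shLoxl2 cells (log2 -0.74, SE 0.11, adjusted p = 0.0103). In shSnail cells it stood at 0.55 (SE 0.15, adjusted p = 0.0522) with the dye effect removed and at 0.50 (adjusted p = 0.0282) without dye correction, so its call there depends on the dye treatment. The difference between the silencings, measured on the 4 Cy5 arrays, was 2.44-fold (log2 1.29, SE 0.15, limma adjusted p = 0.0165). The other 4 licensing genes, Orc1, the loaders Cdc6 and Cdt1 and the Cdt1 inhibitor Gmnn, passed in neither silencing. Their log2 fold changes ran from 0.04 to 0.32 in shLoxl2 and from -0.07 to 0.25 in shSnail cells.

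Mcm10, which helps to start the helicase and binds polymerase alpha, was lower on all 6 arrays. Its log2 ratios were -0.78 and -0.45 on the Cy3 and Cy5 arrays of shLoxl2 replicate 1, -1.29 and -0.91 on those of replicate 2, and -0.86 and -1.22 on the shSnail arrays. It was 1.81-fold lower in shLoxl2 (log2 -0.86, SE 0.16, adjusted p = 0.0225) and 2.32-fold lower in shSnail cells (log2 -1.22, SE 0.23, adjusted p = 0.0207). Without dye correction the shSnail value was -1.04, with scaled removal -1.12, and the call held in both. Without background subtraction the shLoxl2 value was -0.44 and did not pass (adjusted p = 0.0522), and the shSnail value was -0.85 and passed (adjusted p = 0.00706). Without shLoxl2 replicate 2 its shLoxl2 value did not pass (-0.61, adjusted p = 0.0740), and without either shSnail array its shSnail value did not (-1.40, adjusted p = 0.112, and -1.04, adjusted p = 0.170). The difference between the silencings was -0.36 (95% interval -0.95 to 0.23, adjusted p = 0.344). Its probe lies at chr2:4908071-4908130 in mm8, per the files.

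Cdc45, another factor needed to start the helicase, was at -0.65 and -0.69 on the shSnail arrays. On the shLoxl2 arrays its ratios were -0.47 and 0.12 for replicate 1 and -0.36 and -0.42 for replicate 2, so the groups did not overlap before dye correction. Its silenced channel was well above background on 2 of those 4 arrays and its shGFP channel on 3, the array at 0.12 being the exception. These ratios and the dye effect of 0.13 taken from them are thus measured in part against a floor. It fell 1.74-fold in shSnail cells (log2 -0.80, SE 0.19, adjusted p = 0.0393; adjusted p = 0.245 without replicate 1 and 0.233 without replicate 2) and stood at -0.28 in shLoxl2 cells (SE 0.11, adjusted p = 0.173). Without background subtraction its shSnail value was -0.37 (adjusted p = 0.0328), and with the scanner software's log ratio -2.44 (adjusted p = 0.0520). The difference of -0.52 between the silencings did not pass (adjusted p = 0.181).

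The helicase itself, Mcm2 to Mcm7, had 0 of 6 subunits past the threshold in either silencing. Mcm2 was at 0.20 and 0.04 on the arrays of shLoxl2 replicate 1, -0.20 and -0.35 on those of replicate 2, and 0.35 and 0.16 on the shSnail arrays. Its fitted values were -0.08 (SE 0.14, 95% interval -0.42 to 0.26) in shLoxl2 and 0.33 (SE 0.20, adjusted p = 0.320) in shSnail cells. Mcm6 had the highest value of the 6 in shLoxl2 cells, 0.48 (SE 0.18, adjusted p = 0.143), and Mcm4 the lowest in shSnail cells, -0.63 (SE 0.37, adjusted p = 0.299). For Mcm4 the shSnail interval reaches a 2-fold fall, so a fall of that size lies within its error.

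Among polymerases and primase, Pola1 separated the silencings. Its log2 ratios were -0.96 and -0.99 on the shSnail arrays and 0.13 and 0.13 for shLoxl2 replicate 1 and -0.17 and 0.11 for replicate 2. The shSnail arrays lay far below every shLoxl2 array. Pola1 fell 2.06-fold in shSnail cells (log2 -1.05, SE 0.16, adjusted p = 0.0102; -0.98 without dye correction and -0.70 without background subtraction), and stood at 0.05 (95% interval -0.22 to 0.32) in shLoxl2 cells. Without shSnail replicate 1 its adjusted p was 0.120 and without replicate 2 it was 0.115. The difference of -1.09 between the silencings passed (SE 0.15, 2.14-fold, adjusted p = 0.0188). The probe lies at chrX:89557569-89557628 in mm8, per the files.

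Prim2, the regulatory primase subunit, had ratios of -0.29 and -0.57 for shLoxl2 replicate 1, -0.45 and -0.76 for replicate 2, and 0.22 and 0.09 on the shSnail arrays. It fell in shLoxl2 cells (log2 -0.52, SE 0.11, adjusted p = 0.0353) and was at 0.30 (adjusted p = 0.250) in shSnail cells. The difference of 0.82 between the silencings passed (SE 0.16, adjusted p = 0.0383). The catalytic primase subunit Prim1 was at -0.12 and 0.42, and neither passed.

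Pola2, the accessory subunit of polymerase alpha, was at 0.55 (SE 0.19, adjusted p = 0.125) in shLoxl2 and -0.40 (SE 0.33, adjusted p = 0.461) in shSnail cells. Its 4 shLoxl2 arrays ran from -0.37 to 1.12. Pole, the catalytic subunit of the leading-strand polymerase, stood at -0.41 (adjusted p = 0.103) and -0.56 (adjusted p = 0.0991), below 0 on all 6 arrays. Pold1 and Pold2, of the lagging-strand polymerase, were between -0.07 and 0.17 in both silencings.

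**Figure D2:**
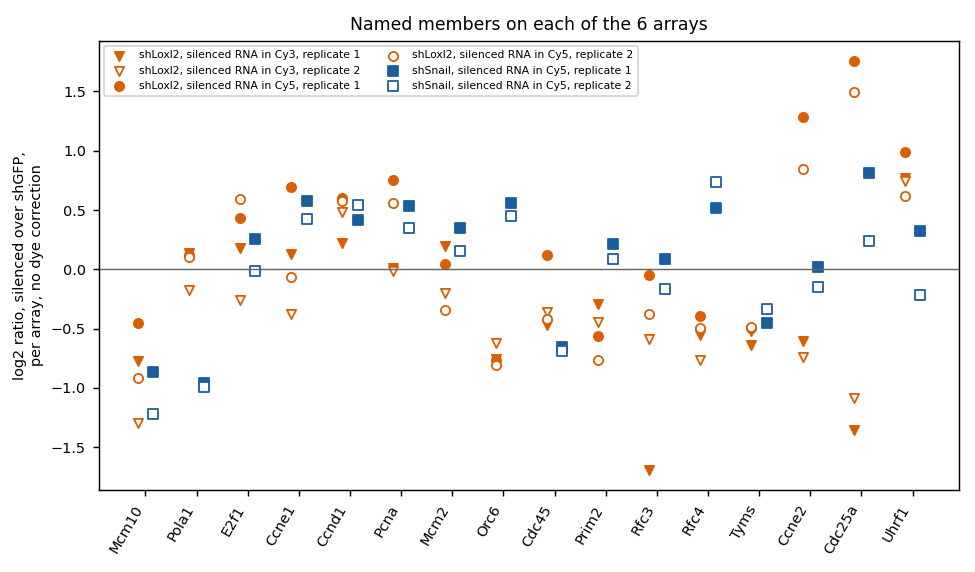
Log2 ratio of silenced over shGFP RNA (vertical axis), with no dye correction, of 16 members on each of the 6 arrays; colours and shapes give the silenced line and the dye of its RNA, filled symbols replicate 1 and open symbols replicate 2. Orc6, Rfc4 and Prim2 have all shLoxl2 arrays below 0 and both shSnail arrays above it, and Cdc25a and Ccne2 split by dye.

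Clamp and loader genes moved in part. Rfc4, a subunit of the complex that loads Pcna onto DNA, had ratios of -0.56 and -0.40 for shLoxl2 replicate 1, -0.77 and -0.50 for replicate 2, and 0.52 and 0.74 on the shSnail arrays. As the plot of members on each array shows, these groups lay on opposite sides of 0. It fell 1.47-fold in shLoxl2 cells (log2 -0.55, SE 0.12, adjusted p = 0.0321). In shSnail cells it was at 0.52 (SE 0.16, adjusted p = 0.0770) with the dye effect removed and passed at 0.63 (adjusted p = 0.0182) without dye correction and at 0.58 (adjusted p = 0.0344) with scaled removal. The difference between the silencings passed at 1.08 (SE 0.17, 2.11-fold, adjusted p = 0.0228).

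Rfc3, another loader subunit, fell in shLoxl2 cells (log2 -0.68, SE 0.14, adjusted p = 0.0302), with array ratios of -1.69 and -0.05 for replicate 1 and -0.59 and -0.38 for replicate 2. The silenced channel was not well above background on either Cy3 array, which gave the lowest ratios, so those are measured against a floor and the size of the fall is uncertain. Without background subtraction Rfc3 was at -0.21 (adjusted p = 0.0989) and with median centring at -0.46 (adjusted p = 0.0505), and neither passed. In shSnail cells Rfc3 was at -0.51 (SE 0.32, adjusted p = 0.339), with ratios of 0.09 and -0.17 on the arrays, and at -0.04 without dye correction. The dye effect removed there, 0.46, draws on the same Cy3 arrays and is likewise measured in part against a floor. Rfc5 was at -0.51 (adjusted p = 0.103) and -0.26 (adjusted p = 0.522).

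Pcna, the clamp, had ratios of 0.01 and 0.76 for shLoxl2 replicate 1, -0.02 and 0.56 for replicate 2, and 0.54 and 0.35 on the shSnail arrays. In shLoxl2 cells both Cy5 arrays were higher than both Cy3 arrays, and the dye effect on this probe was 0.33 (adjusted p = 0.0363). Its fitted values were 0.33 (SE 0.11, adjusted p = 0.124) in shLoxl2 and 0.11 (SE 0.15, adjusted p = 0.672) in shSnail cells, and 0.44 (adjusted p = 0.0489) in shSnail cells without dye correction. The single-strand binding subunits Rpa1 and Rpa2 and the ligase Lig1 passed in neither silencing, with values from -0.36 to 0.31 in shLoxl2 and from 0.02 to 0.44 in shSnail cells.

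Of the 5 nucleotide supply genes 1 fell in shLoxl2 cells, where 4 had negative values, and none passed in shSnail cells. Thymidylate synthase, Tyms, had ratios of -0.64 and -0.50 for replicate 1 and -0.52 and -0.49 for replicate 2, and -0.45 and -0.34 on the shSnail arrays, all below 0. It fell 1.45-fold in shLoxl2 cells (log2 -0.54, SE 0.11, adjusted p = 0.0268) and was at -0.44 (SE 0.14, adjusted p = 0.0952) in shSnail cells. Of its other probes, 1 gave -0.69 (adjusted p = 0.0122) in shLoxl2 cells and the dimmest gave -0.09 (adjusted p = 0.627). The ribonucleotide reductase subunits Rrm1 and Rrm2 stood at -0.28 (adjusted p = 0.202) and -0.48 (adjusted p = 0.0516) in shLoxl2 and at -0.21 and 0.11 in shSnail cells. Thymidine kinase Tk1 was at -0.29 and 0.02, and the dUTPase gene Dut at 0.36 and 0.17, and none of these passed.

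G1/S regulators included the member that rose in shLoxl2 cells besides Uhrf1. Cyclin D1, Ccnd1, had ratios of 0.22 and 0.60 for shLoxl2 replicate 1, 0.49 and 0.58 for replicate 2, and 0.42 and 0.54 on the shSnail arrays, all above 0. It rose 1.39-fold in shLoxl2 cells (log2 0.47, SE 0.11, adjusted p = 0.0421). In shSnail cells it was at 0.36 (SE 0.16, adjusted p = 0.172), and at 0.48 (adjusted p = 0.0398) without dye correction. Without any 1 of the 4 samples its shLoxl2 adjusted p was between 0.0795 and 0.109. Cyclin D2 was at -0.72 (SE 0.24, adjusted p = 0.116) and -0.34 (SE 0.37, adjusted p = 0.590), with -1.15 in replicate 1 and -0.29 in replicate 2 of shLoxl2.

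The E-type cyclins bind Cdk2 at the start of S phase. Ccne1 had ratios of 0.13 and 0.69 for shLoxl2 replicate 1, -0.38 and -0.07 for replicate 2, and 0.58 and 0.42 on the shSnail arrays. The replicates lay on either side of 0, and the fitted values were 0.09 (SE 0.17, 95% interval -0.33 to 0.51) in shLoxl2 and 0.28 (SE 0.26, adjusted p = 0.526) in shSnail cells. Cdk2 was at 0.06 and -0.10, and neither passed.

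Ccne2 and Cdc25a, the phosphatase that activates Cdk2, had the largest dye effects of the 43 members. Ccne2 was at 0.02 and -0.15 on the shSnail arrays, while the shLoxl2 arrays gave -0.60 with the silenced RNA in Cy3 and 1.28 with it in Cy5 for replicate 1, and -0.74 and 0.85 for replicate 2. The dye effect so measured was 0.87 (adjusted p = 0.00249), and its full removal gave -0.93 in shSnail cells (SE 0.18, adjusted p = 0.0220), against -0.46 (adjusted p = 0.112) with scaled removal and -0.06 (adjusted p = 0.788) without. Cdc25a was at 0.81 and 0.24 on the shSnail arrays and at -1.36, 1.76, -1.09 and 1.497 on the shLoxl2 arrays, alternating between Cy3 and Cy5. The Cy3 channel of Cdc25a was not well above background on any of these 4 arrays, so its ratios there and its dye effect of 1.42 are measured against a floor, and its value in shSnail cells rests on subtracting that effect. With it removed, Cdc25a was at -0.90 (SE 0.22, adjusted p = 0.0388), with scaled removal at -0.12 (adjusted p = 0.768), and without at 0.52 (adjusted p = 0.0805), which turned the direction. Without background subtraction it was at -0.12 (adjusted p = 0.472) and Ccne2, whose Cy3 channel was not well above background on 3 of the 4 arrays, at -0.27 (adjusted p = 0.0486). In shLoxl2 cells, where the dyes balance, Ccne2 was at 0.20 (SE 0.13) and Cdc25a at 0.20 (SE 0.16), and neither passed.

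E2f1, the best known activator of the S-phase genes, had ratios of 0.18 and 0.44 for shLoxl2 replicate 1, -0.26 and 0.59 for replicate 2, and 0.25 and -0.01 on the shSnail arrays. It passed in neither silencing, at 0.24 (SE 0.12, adjusted p = 0.268) in shLoxl2 and -0.16 (SE 0.19, adjusted p = 0.634) in shSnail cells. E2f2 was at -0.56 (adjusted p = 0.0929) and -0.62 (adjusted p = 0.272), and E2f3 at -0.36 (adjusted p = 0.174) in shLoxl2 cells. The shSnail arrays gave 0.14 and -0.16 for E2f2, so its value there rests on subtracting a dye effect of 0.60. On the shLoxl2 arrays E2f2 was at -0.55 and -1.78 in Cy3 and at 0.03 and 0.05 in Cy5. Its silenced channel was not well above background on the Cy3 array of replicate 2, which gave the lowest ratio. For E2f3 in shSnail cells the shGFP channel was not well above background on either array, and its level there was at least 1.06-fold that of the lowest measurable shGFP signal, a bound open to dye bias.

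Uhrf1, which guides DNA methylation onto newly made strands, had ratios of 0.77 and 0.99 for shLoxl2 replicate 1, 0.74 and 0.62 for replicate 2, and 0.33 and -0.22 on the shSnail arrays. It rose 1.72-fold in shLoxl2 cells (log2 0.78, SE 0.16, adjusted p = 0.0277) and was at 0.03 (SE 0.21) in shSnail cells. All shLoxl2 arrays lay above both shSnail arrays, yet the difference of -0.75 between the silencings did not pass (SE 0.25, adjusted p = 0.112). The checkpoint kinase Chek1 was at -0.21 (adjusted p = 0.309) in shLoxl2 and -0.49 (adjusted p = 0.141) in shSnail cells, where it passed as lower without dye correction (-0.79, adjusted p = 0.0163) and with scaled removal (-0.65, adjusted p = 0.0436).

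Of the 11 members with an E2F word, 1 rose (Uhrf1) and 1 fell (Rfc3) in shLoxl2 and 2 fell (Pola1 and Cdc25a) in shSnail cells. Of the 25 with a window but no such word, 4 fell in shLoxl2 and 2 fell in shSnail cells, and of the 7 without a window 1 rose and 1 fell in shLoxl2 and 1 fell in shSnail cells. Over all genes 8.47% rose and 5.99% fell in shLoxl2 cells, and 6.13% and 9.24% in shSnail cells. The calls of Rfc3 and Cdc25a carry the limits given above. The median log2 fold changes of the first 2 groups were 0.06 and -0.12 in shLoxl2 and -0.07 and 0.01 in shSnail cells. Whether the groups differed was not tested, and the counts are small.

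The silencings were then compared directly on the 4 arrays that carry Cy5-labelled silenced RNA, to ask where shSnail cells differed from shLoxl2 cells. Orc6, Rfc4 and Prim2 were higher in shSnail cells, and Pola1, Ccne2 and Cdc25a were lower. These were 3 members higher and 3 lower of 43, beside a background of 13.3% of all genes, 4.5% higher and 8.76% lower. For Ccne2 and Cdc25a the shGFP channel was not well above background on either shLoxl2 Cy5 array. Their differences are thus measured against a floor. The silenced channel of Cdc25a had log2 intensities, scaled between arrays, of 7.506 and 7.651 in shLoxl2 and 7.632 and 7.76 in shSnail cells. For Ccne2 these were 7.797 and 7.807, and 7.485 and 7.145. With the dye effect scaled, Orc6, Rfc4 and Prim2 were called higher and Pola1 lower, beside 11.4% of all genes, 3.58% higher and 7.83% lower, and Ccne2 (-0.65, adjusted p = 0.0810) and Cdc25a (-0.32, adjusted p = 0.428) were not. The median difference was -0.12 over the members and -0.04 over all genes. Without shSnail replicate 1 the median difference was -0.265 over the members and -0.029 over all genes. Without shSnail replicate 2 it was 0.017 and -0.05. Fits with a single shSnail array say little about any one gene. Both shSnail arrays were scanned on another day than the shLoxl2 arrays, so scan day and silencing cannot be told apart. The dye effect removed from the shSnail arrays was likewise measured on the other scan day, and over all genes the shSnail ratios rose with it at a slope of 0.452, by which scaled removal multiplies it.

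**Figure D3:**
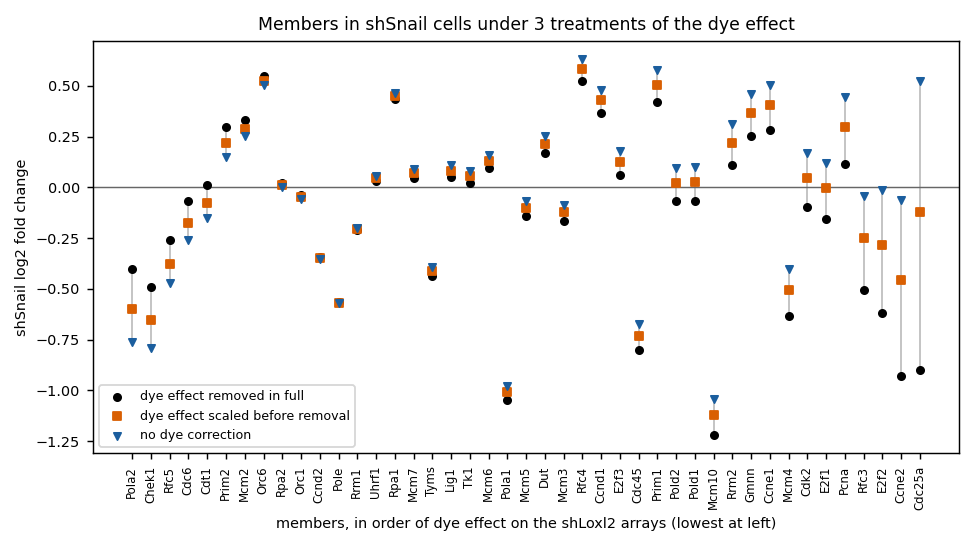
Log2 fold change of the 43 members in shSnail cells against shGFP (vertical axis) with the dye effect removed in full (black), scaled by 0.452 before removal (orange) or not removed (blue), in order of the dye effect measured on the shLoxl2 arrays. Most members shift little, and the widest gaps are at the right end, with Ccne2 from -0.93 to -0.06 and Cdc25a from -0.90 to 0.52.

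How far the shSnail calls turn on the dye is shown by the plot of the 3 dye treatments. Over the members the dye effect ran from -0.36 for Pola2 to 1.42 for Cdc25a, with a median of 0.07, and 3 passed the threshold (Pcna, Ccne2 and Cdc25a). Mcm10, Cdc45 and Pola1 were called lower under all 3 treatments. Without dye correction 4 members were called higher (Orc6, Rfc4, Pcna and Ccnd1) and 5 lower (with Pole and Chek1), beside 23% of all genes, 9.01% higher and 14% lower. With scaled removal 2 were higher (Orc6 and Rfc4) and 4 lower (with Chek1), beside 15.9%, 5.66% and 10.2%. When a dye-swapped pair's mean and its dye estimate were each given the variance of 1 array, an alternative chosen after seeing the data, Orc6 (adjusted p = 0.0307) and Rfc4 (adjusted p = 0.0490) were called higher and the same 5 lower, beside 21.6% of all genes, 9.12% higher and 12.5% lower.

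**Figure D4:**
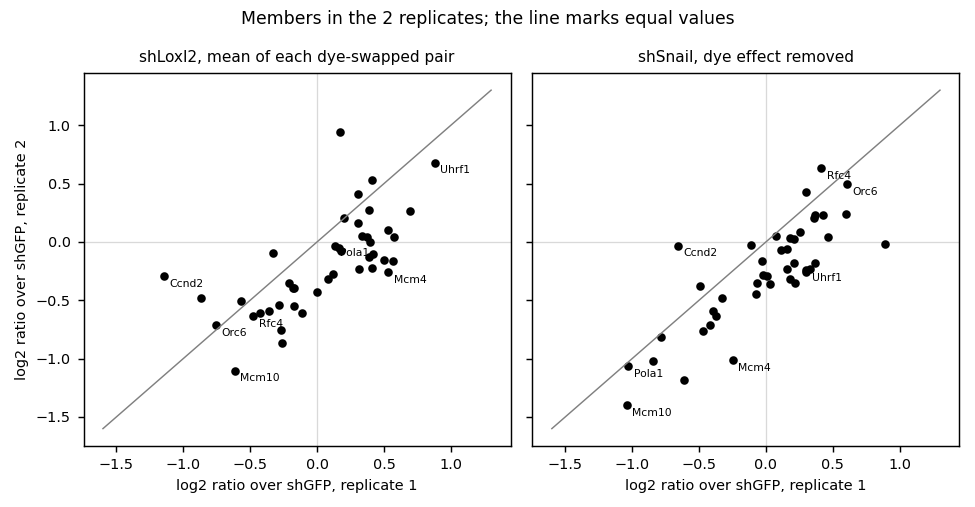
Log2 ratio to shGFP of each member in replicate 1 (horizontal axis) and replicate 2 (vertical axis), for the mean of each dye-swapped shLoxl2 pair (left) and for the shSnail arrays with the dye effect removed (right); the diagonal marks equal values and some genes are named. More points lie below the diagonal than above it in both panels, 34 of 43 on the left and 38 of 43 on the right.

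The members' median moved between replicates. It was 0.17 in replicate 1 and -0.22 in replicate 2 of shLoxl2, where all genes had medians of -0.002 and 0.005. In shSnail cells, with the dye effect removed, it was 0.11 and -0.23, beside -0.05 and -0.03 for all genes. As the plot of the replicates shows, 34 members in shLoxl2 and 38 in shSnail cells had lower ratios to shGFP in replicate 2. The median drop was 0.26 for either silencing on the log2 scale. In each silencing 30 of 43 members had the same sign in both replicates. Mcm4, for example, was at 0.53 and -0.26 in shLoxl2 and at -0.25 and -1.01 in shSnail cells, while Orc6 was at -0.76 and -0.71 and at 0.61 and 0.49. On the shSnail arrays of replicates 1 and 2, the silenced channel of Mcm4 had log2 intensities, scaled between arrays, of 11.475 and 11.534. Its shGFP channel had 11.497 and 12.32. For Orc6 these were 11.912 and 11.919 in the silenced and 11.355 and 11.473 in the shGFP channel. Which channel carried the shift over the members was not tested. Mitosis genes had medians of -1.24 and -1.10 in the shLoxl2 replicates and -1.52 and -1.46 in the shSnail replicates.

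**Figure D5:**
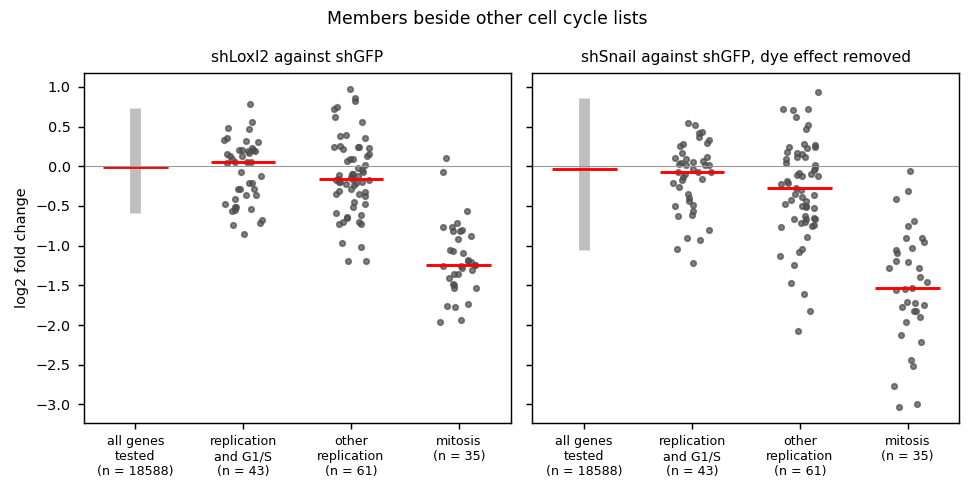
Log2 fold change against shGFP (vertical axis) of the members, the other replication and G1/S genes and the mitosis genes in shLoxl2 cells (left) and shSnail cells with the dye effect removed (right); each dot is a gene, red lines are medians and the grey bar spans the 5th to 95th percentile of all 18588 genes tested. The members lie around 0, with medians of 0.05 and -0.07, and the mitosis genes lie lower, with medians of -1.24 and -1.54.

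Genes of the later cell cycle were given beside the members, as the plot of the lists shows. Of 35 mitosis genes tested, 32 fell and 0 rose in shLoxl2 cells, and 30 fell and 0 rose in shSnail cells, by limma, and 0 were higher at an unadjusted p below 0.05 in either. Ccnb2, a mitotic cyclin, had log2 fold changes of -1.96 and -1.82 in shLoxl2 and shSnail cells, and Cdca8, of the chromosomal passenger complex, of -1.76 and -1.96. Ect2, needed for cytokinesis, was at -1.74 and -2.51, and the mitotic phosphatase Cdc25b at -0.82 and -3.00. Mad2l1, of the spindle checkpoint, fell in shLoxl2 cells (-1.49) and stood at -0.69 in shSnail cells (adjusted p = 0.0503). The difference between this list and the members was not tested.

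Other replication and G1/S genes, 61 of 67 tested, had medians between those of the members and of the mitosis genes. In shLoxl2 cells 3 rose and 11 fell (median -0.16), and in shSnail cells 1 rose and 14 fell (median -0.27). The histone chaperone Asf1b (-1.19, adjusted p = 0.00295), cyclin A2 (-1.02, adjusted p = 0.00458) and the repressor E2f6 (-1.19, adjusted p = 0.00545) fell in shLoxl2 cells, and stood at -0.37, -0.50 and -0.13 in shSnail cells without passing. Cdk6, a kinase partner of cyclin D, was at -0.07 in shLoxl2 cells and fell by 2.07 on the log2 scale in shSnail cells (adjusted p = 0.00354), a difference of -2.00 (adjusted p = 0.0162). Topbp1, an activator of the replication checkpoint, was at -0.35 and fell by 1.13 in shSnail cells (adjusted p = 0.00698).

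Inhibitors of the cyclin-dependent kinases act at the same step as the G1/S regulators above. Of 6 tested, Cdkn2b rose in shLoxl2 cells (0.77, SE 0.13, adjusted p = 0.0170) and stood at -0.51 in shSnail cells, and Cdkn1a, the p53 target p21, rose in shSnail cells (1.005 on the log2 scale, SE 0.17, adjusted p = 0.0152) and stood at -0.13 in shLoxl2 cells. The difference between the silencings passed for Cdkn1a (1.14, adjusted p = 0.0210) and for Cdkn2b (-1.29, adjusted p = 0.0179). The other 4 passed in neither, with values from -0.23 to 0.08 in shLoxl2 and from -0.05 to 0.35 in shSnail cells.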

How the data were processed

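The authors deposited, for each array, spot intensity values of both channels and log10 ratios of Cy5 over Cy3, made with Agilent's Feature Extraction (9.5.1.1 in the headers, 6.1.1 in the submitters' processing notes). The authors' value table held these log10 ratios in the same direction, with column medians from 0.0371 to 0.098, and 100% of spots lay within 0.006 of the array each column names. The column of shSnail replicate 2 instead matched the array of replicate 1, so the table served as an alternative with a single shSnail array. Quality flags were those the deposited files give. Per the labels, RNA was linearly amplified.

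Mean intensities and background medians were corrected by normexp (offset 50) and normalized by loess in limma 3.58.1 (R 4.3.3, version 1.17.8 of data.table), giving weight 0 to 736 control spots and to outliers. Averaging the 21318 other spots left 20868 probes, 14711 named through RefSeq accessions (GRCm38.p6) and 6157 by the files. Genes well above background in 1 channel on at least 2 arrays were tested by lmFit and eBayes on log2 ratios with Benjamini-Hochberg adjustment over 18588 genes at 0.05. Averages of dye-swapped shLoxl2 pairs were tested with the 2 shSnail values sharing the spread. The shSnail test used all 6 arrays as single values with a dye term, and scaled removal used the slope of the shSnail arrays on the dye effect. The scripts were tested on simulated data.

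Values on every array were to be given for members called with a log2 fold change of at least 1 and for E2f1, Ccne1, Ccnd1, Pcna and Mcm2, and at most 5 genes of other lists by smallest p. The other called members were added after their values were seen. The members and lists were chosen with earlier results of these data known.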

Additional observations from a re-analysis of the deposited data

How the results depend on the processing

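The value of Cdc25a in shSnail cells turned from -0.90 to 0.524 without dye correction, and the other 15 members followed singly kept the direction of every call. The shLoxl2 calls over all genes numbered 2687, and 810 with the scanner software's log ratio and 4130 with the authors' value table, with 6, 1 and 11 members lower, and 1790 to 2840 with a shLoxl2 replicate left out, with 3 members lower either way and member medians of -0.224 and 0.167. The shSnail calls numbered 2857, and 6692 with median centring (9 members lower, median -0.402), 5038 with the value table, and 2 to 5630 with a replicate left out, with 0 to 8 members lower. Calls between the silencings numbered 2464, and 8790 with median centring (7 members lower, median -0.405), 7490 with the value table (5 lower) and 48 to 4200 with a replicate left out, with 0 to 4 lower. There, 1 member was lower without background subtraction and 1 with the dye effect scaled. The cause was not tested. Members called lower are set here beside calls of all genes in either direction. Of the shLoxl2 calls over all genes 58.6% were higher, and 55.6% with the software's log ratio and 49.4% with the value table. Of the shSnail calls 39.9% were higher, and 50.7% with median centring. Between the silencings 53.0% were higher with median centring. The rest of the calls were lower in each case.

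Median centring moved the median of all genes from -0.037 to 0.091 in shSnail cells and from -0.039 to 0.109 between the silencings, and the software's log ratio moved it to -0.266 and -0.267. The members lay -0.493 and -0.514 from it under the former and 0.152 and 0.135 under the latter. Of calls between the silencings, 33.9% were higher, and 53.0% and 19.2% under these settings. With the replicate number as a block, calls between the silencings numbered 2597, with 3 members higher and 4 lower, Mcm4 being the additional one; deviations of same-numbered Cy5 arrays correlated at 0.209, and no label says that the numbers pair samples. With 1 shSnail array left out, the lone array is assumed to vary like the others. Dim probes limit Cdc45, Rfc3, Ccne2, Cdc25a, E2f1, E2f2, E2f3, Pola2, Rpa2 and Chek1, each not well above background in some channels.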
